A study of Mus musculus with 21 samples.

Results

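The genes described here code for the subunits of the proteasome and of the chaperonin CCT (also called TRiC). They were taken by symbol: Psma, Psmb, Psmc and Psmd followed by a number, without the immunoproteasome genes Psmb8, Psmb9 and Psmb10, together with Tcp1 and every symbol that begins with Cct2 to Cct8. This gave 46 of the 24047 genes in the count table, 36 of the proteasome and 10 of CCT. By role these were 8 genes of the 20S alpha ring, 8 of the 20S beta ring, 6 ATPases of the 19S base, 14 other 19S genes and 10 genes of CCT. Of the 46, 43 passed the filter on low counts in the drug experiment and 42 in the hairpin experiment.

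The proteasome is the protease that removes proteins marked with ubiquitin. Its 20S core is a barrel with outer alpha rings and inner beta rings that hold the cutting sites, and its 19S cap binds ubiquitin chains, unfolds the substrate with a ring of ATPases and feeds it into the core. CCT is a double-ringed chaperone that folds actin, tubulin and a set of other newly made proteins. Both complexes are made in all growing cells.

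RNA was sequenced from SMB21, a mouse cell line of sonic hedgehog (SHH) medulloblastoma, a tumour of the cerebellar granule lineage. In 1 experiment the cells received quisinostat, an inhibitor of histone deacetylases (HDACs) which the labels call JNJ, and the controls received DMSO, the solvent; both were sampled at 2 h and at 24 h. In the other, cells were given a virus that codes for a hairpin RNA against luciferase (shLuc, the control), Hdac1 (shHdac1) or Hdac2 (shHdac2), and all of these cells were selected with puromycin. Each of the 7 groups held 3 libraries, all of 1 cell line. The labels give neither the drug's dose nor the number of hairpins used per gene, and they do not name the libraries of a group as separate cultures, so p-values measure the spread between libraries, which may be technical. In each hairpin group replicates 1 and 2 were far closer to each other than to replicate 3.

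Libraries held 23094799 to 39341784 counted reads, of which the 46 genes took 0.920% to 1.43%. Hdac1 was at 30.6 ± 1.99 CPM (read counts scaled to the library's adjusted total, ± SD, n = 3) with shHdac1 and 94.7 ± 5.86 with shLuc, and Hdac2 was at 50.3 ± 3.08 CPM with shHdac2 and 318 ± 23.1 with shLuc. The 11 markers of SHH medulloblastoma and the granule lineage had counts in all 21 libraries and summed to 1595 to 2965 CPM. Markers of other brain cells summed to 4.93 to 68.8 CPM, with the microglial genes Aif1 and Cx3cr1 at 0 in 17 and 15 libraries, and those of blood, vessel and connective tissue to 4.12 to 29.03 CPM. JNJ 2 h replicate 1 stood apart: its share of reads in the 46 genes was 0.920%, against 1.24% and 1.31% in the other JNJ 2 h libraries.

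Promoter sequence was matched by symbol to a RefSeq table of the mouse build GRCm38.p6, which holds 250 bases before to 50 bases after the start of each gene, and 38 of the 46 genes were found. The stretches below are the last 200 bases before the start of 6 genes whose change with JNJ at 24 h is described further on: 4 that were lower (Psmc6, Psma1, Cct3 and Cct6a) and both that were higher (Psmd8 and Cct6b). They lie at chr14:45329624-45329823 (plus strand), chr7:114276117-114276316 (minus strand), chr3:88296935-88297134 (plus strand), chr5:129787156-129787355 (plus strand), chr7:29180674-29180873 (minus strand) and chr11:82764322-82764521 (minus strand). Each is written 5′ to 3′ on the gene's strand, and capitals mark a match on either strand to 1 of the 5 motifs named after them.
Psmc6: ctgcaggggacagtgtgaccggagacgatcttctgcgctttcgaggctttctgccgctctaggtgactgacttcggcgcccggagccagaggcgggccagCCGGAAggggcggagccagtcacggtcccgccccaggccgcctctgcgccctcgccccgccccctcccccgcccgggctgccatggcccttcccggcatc
Psma1: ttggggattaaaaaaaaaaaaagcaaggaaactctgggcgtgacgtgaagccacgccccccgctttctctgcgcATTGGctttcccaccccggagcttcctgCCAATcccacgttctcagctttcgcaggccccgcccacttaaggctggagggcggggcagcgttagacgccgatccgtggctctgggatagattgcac
Cct3: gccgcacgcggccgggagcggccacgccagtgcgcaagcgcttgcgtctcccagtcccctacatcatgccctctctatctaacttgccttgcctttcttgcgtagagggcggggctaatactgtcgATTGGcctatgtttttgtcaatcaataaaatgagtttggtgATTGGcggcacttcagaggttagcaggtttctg
Cct6a: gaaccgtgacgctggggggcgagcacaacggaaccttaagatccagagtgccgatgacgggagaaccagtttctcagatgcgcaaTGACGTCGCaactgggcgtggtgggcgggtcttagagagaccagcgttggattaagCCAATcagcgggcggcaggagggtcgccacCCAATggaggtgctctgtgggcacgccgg
Psmd8: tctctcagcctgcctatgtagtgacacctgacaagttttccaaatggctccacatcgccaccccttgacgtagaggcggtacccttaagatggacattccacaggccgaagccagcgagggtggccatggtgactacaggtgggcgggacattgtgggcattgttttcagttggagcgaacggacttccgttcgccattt
Cct6b: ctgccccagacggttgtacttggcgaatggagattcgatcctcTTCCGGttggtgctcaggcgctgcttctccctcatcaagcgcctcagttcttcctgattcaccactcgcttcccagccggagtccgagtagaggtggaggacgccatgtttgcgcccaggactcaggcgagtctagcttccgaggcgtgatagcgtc

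The ETS core CCGGAA was in 21 of the 38 promoters (55.3%), against 16.7% of all 27025 genes in the table and 29.1% of the 10720 that were also tested in the drug experiment. ETS proteins are a large family of transcription factors that bind this core. Among the 38, 15 of 29 proteasome promoters and 6 of 9 CCT promoters held it. The box CCAAT, bound by NF-Y, was in 17 of 38 promoters (44.7%), close to its share of all genes (41.1%) and of tested genes (43%). In the stretches shown, Psma1, Cct3 and Cct6a each have a pair of CCAAT boxes, read as ATTGG where the match is on the other strand. The core TGACNNNGC, bound by NFE2L1 and NFE2L2, factors known to drive proteasome genes, was in 8 of 38 (21.1%), against 14% of all and 16.7% of tested genes. The heat shock core GAANNTTC and the nuclear respiratory factor 1 core GCATGCG were each in 3 of 38 (7.89%), against 7.01% and 7.09% of tested genes. Both strands were searched over the whole window, motifs may overlap, and a gene with more than 1 start counted once. These shares are descriptions with no test, and the stretch of Psmd8 held none of the 5 motifs.

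Levels were compared between genes per coding kilobase (CPM divided by the coding length). Coding length leaves out the untranslated parts of an mRNA, which reads may also cover, so the order of genes is approximate. In DMSO 24 h cells the CCT genes were highest: Cct8 was at 634 CPM per coding kilobase, Cct3 at 594 and Cct7 at 500.2, down to 251 for Cct4, with a median of 469.5 over 7 genes. The alpha ring lay at 138 to 339 (median 270.0) and the beta ring at 51.1 to 358 (median 277). The lowest of the beta ring was Psmb5, which carries the chymotrypsin-like cutting site, whereas Psmb6 and Psmb7, with the caspase-like and trypsin-like sites, were at 277 and 258. The ATPases ran from 124 for Psmc2 to 231 for Psmc6. The other 19S genes ranged from 39.5 for Psmd10, a chaperone of 19S assembly also called gankyrin, to 228 for Psmd7, a lid subunit. Psmd5 and Psmd9, which also help to build the base, were low too, at 60.5 and 77.05. Cct6a got no value per kilobase, since the annotation used for lengths gave it no coding sequence.

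Genes of these families that are known from other tissues were close to silent. Psma8, an alpha subunit of the testis, had 10 reads over all 21 libraries and Psmb11, the beta subunit of the thymus, had 18. Cct8l1 had 5, and none of these 3 genes passed the filter in either experiment. Cct6b, the testis-enriched copy of Cct6a, had 220 reads in all and passed only in the drug experiment, through its counts in JNJ 24 h. How reads that map to several places were counted is not given, so values of such close pairs (Cct6a and Cct6b, Psma7 and Psma8) and of subunits with processed pseudogenes are uncertain.

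**Figure D1:**
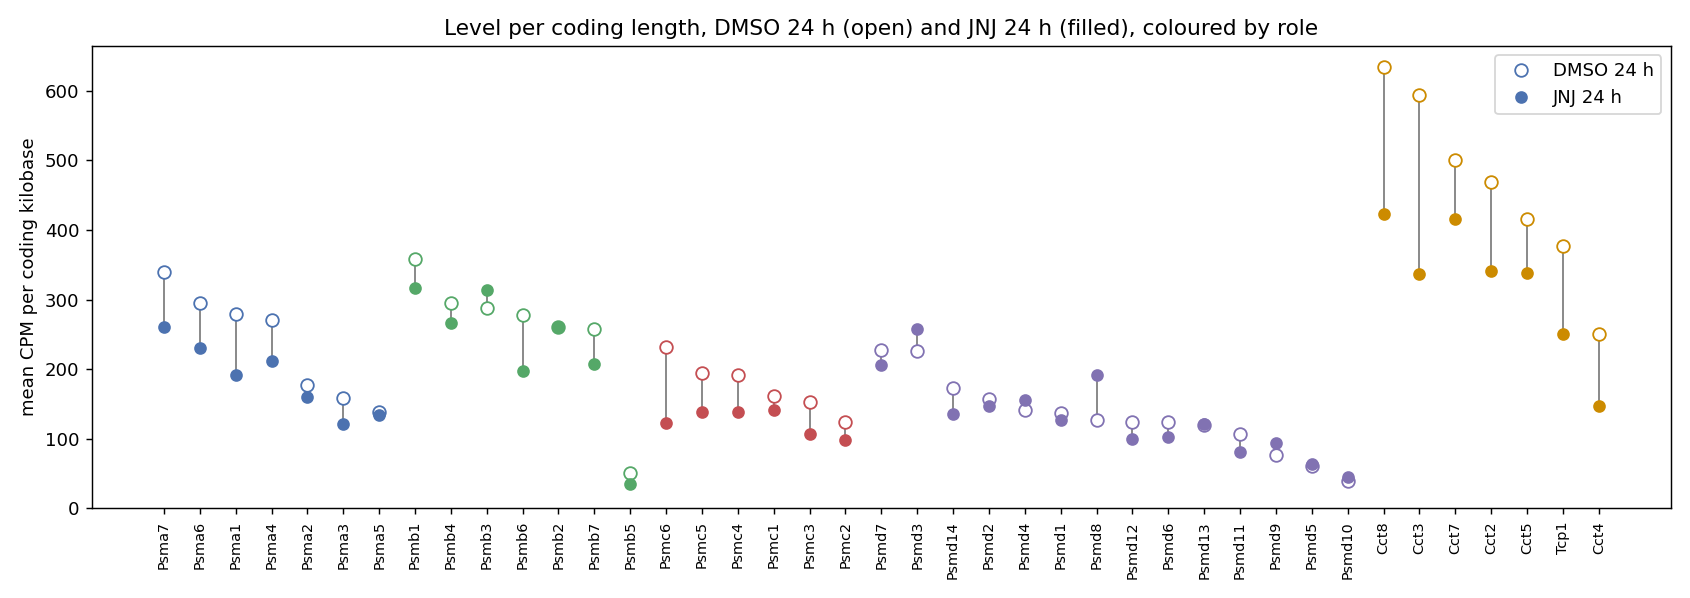
Mean CPM per coding kilobase of 41 genes in DMSO 24 h (open points) and JNJ 24 h cells (filled points, joined by a line), coloured by role and sorted within each role (n = 3 per group). Cct8 and Cct3 are the highest at 634 and 594 in DMSO 24 h, and Psmb5 is the lowest of the beta ring at 51.1.

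After 24 h of quisinostat, the share of these genes called lower was near that of all genes. The share called higher was smaller than that of all genes. With edgeR's quasi-likelihood test and an adjusted p under 0.05, 6 of the 43 genes fell (Psma1, Psmc4, Psmc6, Cct3, Cct4 and Cct6a) and 2 rose (Psmd8 and Cct6b). That is 14% lower and 4.65% higher, where 15.1% of all 14467 tested genes were called lower and 18.1% higher. Apart, 3 of 34 proteasome genes (8.82%) and 3 of 9 CCT genes (33.3%) were called lower. Cct6b passed the filter only through its JNJ 24 h counts. With the replicate number as a block, described below, 39.5% of the 43 were called lower, against 21.6% of all genes. Most of the 43 were abundant: 26 and 11 of them lay in the 2 highest of 10 bins of level, described below. In those bins 31.4% and 25.6% of all genes were called lower, and 42.2% and 36.7% with the block. The median log2 change over the 43 was -0.31, against 0.01 over all tested genes, and 33 of 43 were negative. Over all genes of those 2 bins the median was -0.32 and -0.235. Genes of a library moved together, so counts of signs and of groups with no overlap, here and below, are descriptions. The shares of all genes set beside counts of no overlap were not matched for level. In bulk RNA, fewer cells of a type and less RNA per cell cannot be told apart.

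Psmc6, an ATPase of the base, fell most of the proteasome genes. It was at 156, 136 and 138.5 CPM with JNJ at 24 h, and at 265, 243 and 302 CPM in DMSO. All 3 treated libraries were below all 3 controls, and the log2 change was -0.91 (SE 0.20, adjusted p = 0.00461). Psmc4, another ATPase, was at 173, 169 and 180.5 CPM against 244, 222 and 254 CPM (log2 change -0.46, SE 0.16, adjusted p = 0.043). Its groups did not overlap, but the call was lost without any 1 of the 6 libraries, under RLE, upper-quartile or library-total scaling, and with no filter (adjusted p = 0.0527 to 0.122). The other 4 ATPases had log2 changes of -0.53 to -0.20 and were not called. Psmc1 had the highest p of the ATPases, at 160, 201 and 199.5 CPM against 195, 217 and 229.9 CPM (adjusted p = 0.359), with groups that overlapped.

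In the alpha ring, Psma1 fell. Its libraries were at 163, 158 and 134 CPM with JNJ and at 200.3, 218 and 243 CPM in DMSO, with no overlap (log2 change -0.54, SE 0.16, adjusted p = 0.018). Psma1 missed the threshold when DMSO 24 h replicate 3 (adjusted p = 0.0748) or JNJ 24 h replicate 3 (0.0792) was left out, and under scaling to library totals (0.0733). All 7 tested alpha genes had a negative change, with a median of -0.36. Psma5 differed least, at 89.6, 94.8 and 108 CPM against 95.1, 95.6 and 108.5 CPM (log2 change -0.04, 95% interval -0.42 to 0.35).

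No gene of the beta ring was called. Psmb6 was the nearest, at 119, 161.5 and 143 CPM with JNJ and 162.5, 206 and 225 CPM in DMSO (log2 change -0.49, SE 0.19, adjusted p = 0.0651). Its groups did not overlap. Psmb5, with the chymotrypsin-like site, was at 25.3, 25.5 and 32.3 CPM against 35.5, 35.5 and 50.3 CPM (log2 change -0.54, adjusted p = 0.122). Psmb2 gave 127.5, 158 and 186 CPM against 143, 146 and 182.5 CPM, a log2 change of 0.00 with a 95% interval of -0.50 to 0.50.

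The other 19S genes split evenly by sign, 7 positive and 7 negative. Psmd8, a lid subunit, rose: it was at 175, 199.5 and 235 CPM with JNJ and at 122, 125 and 155 CPM in DMSO (log2 change 0.60, SE 0.17, adjusted p = 0.0161). The groups did not overlap, though leaving out DMSO 24 h replicate 1 (adjusted p = 0.0748), DMSO 24 h replicate 2 (0.0782) or JNJ 24 h replicate 3 (0.0792) ended the call. Psmd13, another lid subunit, was at 119.5, 138 and 155 CPM against 116, 139 and 152 CPM, with the highest p of the role (adjusted p = 0.948). The median of the 14 was -0.04 with the scaling used, and it turned to 0.07 with upper-quartile scaling and 0.12 with library totals. Those scalings moved the median of all genes to 0.12 and 0.17, so relative to all genes it stayed below 0 in each.

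CCT had the lowest median of the 5 roles, a log2 change of -0.58 over 9 genes. Cct6a was at 412, 382 and 442 CPM with JNJ against 720.4, 678 and 892 CPM in DMSO (log2 change -0.89, SE 0.21, adjusted p = 0.00583). Cct3 was at 496, 559.8 and 594 CPM against 852, 967 and 1095 CPM (log2 change -0.82, SE 0.20, adjusted p = 0.00733). Cct4 gave 215, 243 and 254 CPM against 379.8, 379 and 458 CPM (log2 change -0.77, adjusted p = 0.0101). In all 3 the highest treated library was below the lowest control. Tcp1, Cct2 and Cct8 had changes of -0.59, -0.46 and -0.58, not called, with groups that did not overlap. Cct5 was at 499.8, 566 and 583.5 CPM against 574, 683 and 764 CPM, with the highest p of CCT (adjusted p = 0.28), and its groups overlapped.

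Cct6b went the other way from a very low level. It had 47, 44 and 25 reads in the JNJ 24 h libraries and 9, 7 and 5 in DMSO 24 h, which is 1.22, 1.41 and 0.985 CPM against 0.259, 0.181 and 0.141 CPM. The groups did not overlap (log2 change 2.62, SE 0.50, adjusted p = 0.00183). In the other drug libraries it had 3 to 9 reads, below the filter's minimum count of 10. It thus entered the test only through the group where it was high, and its call is given as a description. At its highest, Cct6b was still at 0.756 CPM per coding kilobase, where Cct4 was at 147 in the same cells. The calls of Psmc6, Cct3, Cct4, Cct6a and Cct6b held under every alternative run for them.

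**Figure D2:**
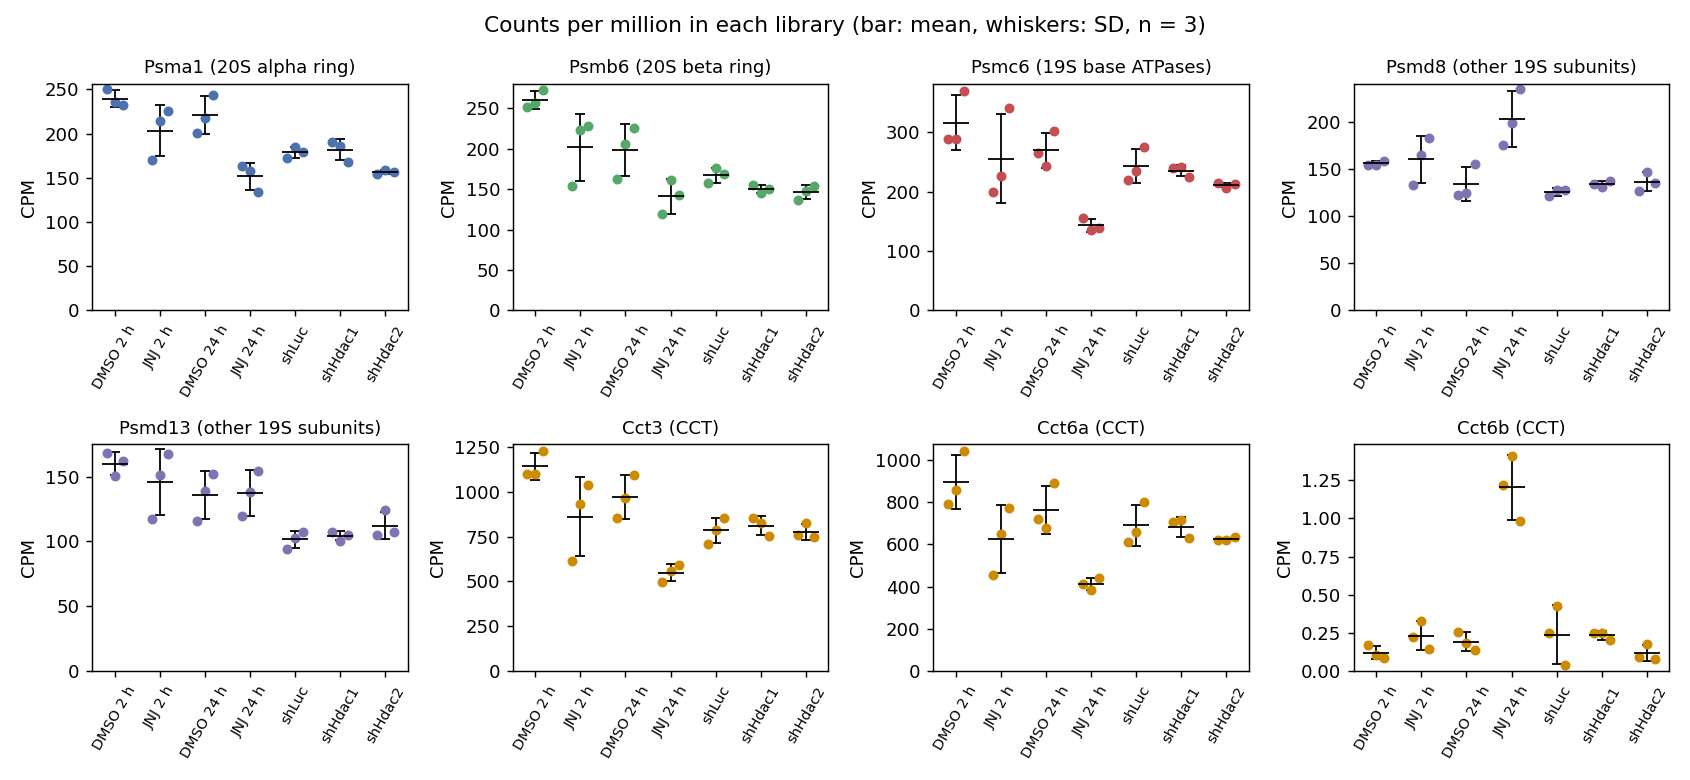
CPM in each library (points) of 8 genes in the 7 groups, with the group mean (bar) and SD (whiskers, n = 3), on linear axes from 0. Psmc6, Cct3 and Cct6a are lowest and Psmd8 and Cct6b highest in JNJ 24 h, while Psmd13 is at 119.5 to 155 CPM there and at 116 to 152 CPM in DMSO 24 h.

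JNJ and DMSO libraries with the same replicate number varied together at 24 h, and adding the number as a block raised the number of calls. With the block, 17 of 43 genes fell and 2 rose (39.5% and 4.65%), where 21.6% of all genes were called lower and 24.3% higher. In the 2 highest bins of level, described below, 42.2% and 36.7% of all genes were called lower with the block. By role, 5 of 6 ATPases, 6 of 9 CCT genes, 3 of 7 alpha genes, 2 of 7 beta genes and 1 of 14 other 19S genes fell. The added calls were Psma3, Psma7, Psmb5, Psmb6, Psmc2, Psmc3, Psmc5, Psmd12, Tcp1, Cct2 and Cct8. Among them Tcp1 had an adjusted p of 0.00497 and Psmc3 of 0.00841, whereas Psmc2 and Psmd12 were near the threshold at 0.0489 and 0.049. Whether the roles differed from each other was not tested.

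Groups that did not overlap were counted as well. In 21 of 43 genes (48.8%) every JNJ 24 h library was below every DMSO 24 h library, as in 26.9% of all genes. Psmd8 and Cct6b were the 2 with no overlap in the other direction (4.65%, against 28.6% of all genes). As a share of all counted reads, which scales to library totals alone, CCT took 0.431% to 0.473% with JNJ and 0.555% to 0.655% in DMSO, with no overlap. The proteasome took 0.578% to 0.674% and 0.604% to 0.693%, which overlapped.

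The level of a gene also went with its call at 24 h. Tested genes were cut into 10 bins of equal size by their mean CPM in the shLuc cells, whose libraries take no part in the drug comparison. The share called lower went from 1.87% in the lowest bin to 31.4% in the highest, and the share called higher from 41.5% to 3.52%. Of the 43 genes, 26 were in the highest bin, where 6 fell, and 11 in bin 9, where none fell and 25.6% of all genes did. The median log2 change of all genes was -0.32 in the highest bin and -0.235 in bin 9. With the replicate block, 13 of the 26 and 3 of the 11 fell, where 42.2% and 36.7% of all genes in these bins did. Several other measures moved with the treatment too: JNJ 24 h libraries had 23461048 to 33608651 reads against 33829963 to 37888863 in DMSO 24 h, and the granule lineage markers summed to 1595 to 2242.5 CPM against 2613 to 2965 CPM. Markers of other brain cells summed to 4.93 to 9.16 CPM against 12.7 to 14.2 CPM, and those of blood, vessel and connective tissue to 11.2 to 29.03 CPM against 5.33 to 17.3 CPM. The part of level, depth and these markers in the result was not tested.

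**Figure D3:**
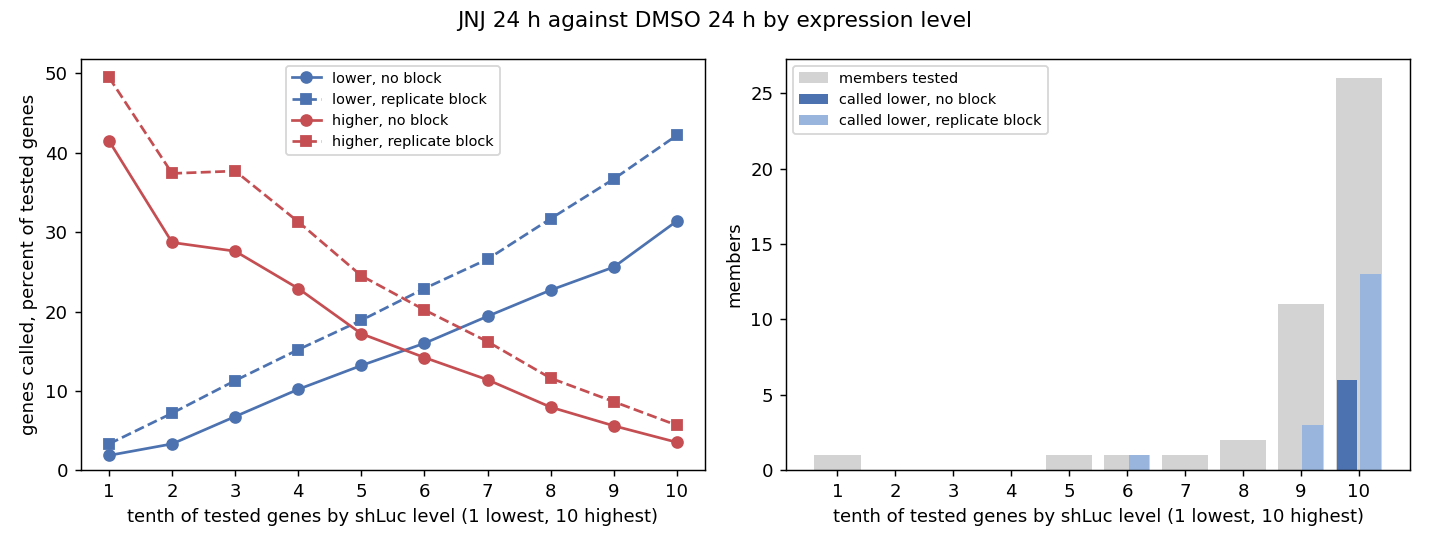
Left, percent of all tested genes called lower (blue) or higher (red) in JNJ 24 h against DMSO 24 h, by bin of the mean level in shLuc (10 bins of equal size), without (solid) and with the replicate block (dashed). Right, number of proteasome and CCT genes tested (grey) and called lower in each bin: 26 of the 43 are in the highest, where 6 (13 with the block) were called lower and 31.4% (42.2%) of all genes were.

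Genes that build, activate or attach to the proteasome gave 3 lower of 16 tested at 24 h, and none higher. The lowest p were those of AI314180 (current RefSeq symbol Ecpas), a scaffold that binds the proteasome, at 78.5 ± 10.02 CPM against 171 ± 11.8 CPM (log2 change -1.13, adjusted p = 0.00143), and Usp14, a deubiquitinase that sits on the 19S cap, with a log2 change of -0.65 (adjusted p = 0.00427). Txnl1, a thioredoxin bound to the 19S cap, was the other (-0.62, adjusted p = 0.0186). In the ubiquitin and p97 list 2 of 19 were called, both lower: Ubqln2, a shuttle for ubiquitinated proteins (-0.60), and Ube2d3, a ubiquitin-conjugating enzyme (-0.60). Ubqln2 missed the threshold without DMSO 24 h replicate 2 or 3 or JNJ 24 h replicate 1 or 3 (0.0736 to 0.108), and Ube2d3 without any 1 of the 6 libraries (0.0652 to 0.151), adjusted p in edgeR in each case. These shares stand beside 15.1% lower among all genes.

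The 3 immunoproteasome genes, which code for the beta subunits that interferon puts in place of the standard ones, were all called at 24 h. Of all genes 18.1% were called higher and 15.1% lower, and in the lowest bin of level 41.5% were called higher. Psmb8, at 0.335 CPM in shLuc, lay in that bin. Psmb9 was at 3.86 ± 0.651 CPM with JNJ and 0.139 ± 0.0760 CPM in DMSO (log2 change 4.77, adjusted p = 0.000127). Psmb8 was at 0.960 ± 0.571 and 0.0946 ± 0.0938 CPM (log2 change 3.31, adjusted p = 0.036). In the DMSO 24 h libraries 3 reads are 0.0792 to 0.0887 CPM, so both means there lay below the filter's minimum count of 10. Psmb8 and Psmb9 thus entered the test through other groups, and their calls and fold changes are given as descriptions. Psmb10 was lower, at 5.01 ± 0.718 against 9.33 ± 2.17 CPM (log2 change -0.90, adjusted p = 0.0354). Psmb8 was not called without DMSO 24 h replicate 2 or 3 or JNJ 24 h replicate 1 or 3, with an adjusted p of 0.0771 to 0.111. Psmb10 lost it without any library but DMSO 24 h replicate 2 (0.055 to 0.127), and with upper-quartile scaling (0.051) or library totals (0.0596). Their levels were far below the standard subunits Psmb5 and Psmb6, which are given above.

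Among 11 factors known to regulate proteasome genes, 1 rose and 4 fell at 24 h, where 18.1% of all genes rose and 15.1% fell. Stat3 rose from 114 ± 51.3 to 328 ± 58.3 CPM (log2 change 1.52, adjusted p = 0.00142). Foxm1 fell from 309.7 ± 49.0 to 117 ± 42.5 CPM (log2 change -1.41, adjusted p = 0.00152) and Nfyc, a subunit of NF-Y, from 45.4 ± 6.90 to 21.1 ± 0.372 CPM (log2 change -1.11, adjusted p = 0.00326). The others that fell were Nfyb (-0.79) and Hsf1, the heat shock factor (-0.72). Nfe2l1, which raises proteasome genes when the proteasome is inhibited, had a log2 change of 0.63 (adjusted p = 0.136).

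CCT's partners and clients were listed too. Of 13 partners 2 fell at 24 h, the prefoldin subunits Pfdn1 (-0.71, adjusted p = 0.0225) and Vbp1 (-0.60, adjusted p = 0.0427). Without DMSO 24 h replicate 3 or any 1 JNJ 24 h library Pfdn1 had an adjusted p of 0.0506 to 0.0763, and without any library but DMSO 24 h replicate 2 Vbp1 had one of 0.0789 to 0.16. Of 14 actin and tubulin genes 5 rose and 4 fell, beside the same 18.1% and 15.1% of all genes. Tuba4a rose from 3.49 ± 1.05 to 30.9 ± 7.52 CPM (log2 change 3.14, adjusted p = 0.00022) and Tuba1c from 12.2 ± 2.65 to 28.3 ± 5.95 CPM (log2 change 1.22, adjusted p = 0.00303). The abundant Tubb5 fell from 1939 ± 336 to 817 ± 37.6 CPM (log2 change -1.25, adjusted p = 0.00044), and Tuba1b from 166 ± 27.7 to 58.6 ± 8.86 CPM (2.82-fold lower, adjusted p = 0.000341).

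At 2 h of quisinostat no gene of the proteasome or CCT was called, where 4.59% of all genes were called lower and 9.11% higher. At an unadjusted p under 0.05 there were 3 of 43 (6.98%, against 29% of all genes), and DESeq2 called 0. With the replicate number as a block, 8 of 43 fell (18.6%, against 9.35% of all genes): Tcp1, Cct2, Cct3, Cct5, Cct6a, Psmb5, Psmd7 and Psmd11, with adjusted p of 0.0244 to 0.0489. These were 5 of 9 CCT genes (55.6%) and 3 of 34 proteasome genes (8.82%), the latter near the share of all genes. Whether the numbers pair the 2 h libraries depended on the log scale: same-numbered libraries correlated at 0.142, 0.701 and 0.596 on 1 scale and at -0.005, 0.651 and 0.585 on another. Changes were negative in 39 of 43 genes, with a median of -0.24 (all genes 0.03) and of -0.41 in CCT. Cct6a had the lowest p: it was at 454, 649 and 772 CPM with JNJ and 794, 856 and 1041 CPM in DMSO, with no overlap (log2 change -0.52, SE 0.21, adjusted p = 0.113). In 11 of 43 genes (25.6%) every JNJ 2 h library was below every DMSO 2 h library, against 11.7% of all genes. The treated libraries differed in size of shift. The median difference of the 42 genes tested in both experiments from the DMSO 2 h mean was -0.65 (log2 CPM) in JNJ 2 h replicate 1, -0.21 in replicate 2 and -0.04 in replicate 3. Without JNJ 2 h replicate 3, edgeR called 7 genes lower: Tcp1, Cct2, Cct4, Cct5, Cct6a, Psmc6 and Psmd14 (16.3%, against 8.25% of all genes in that fit).

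**Figure D4:**
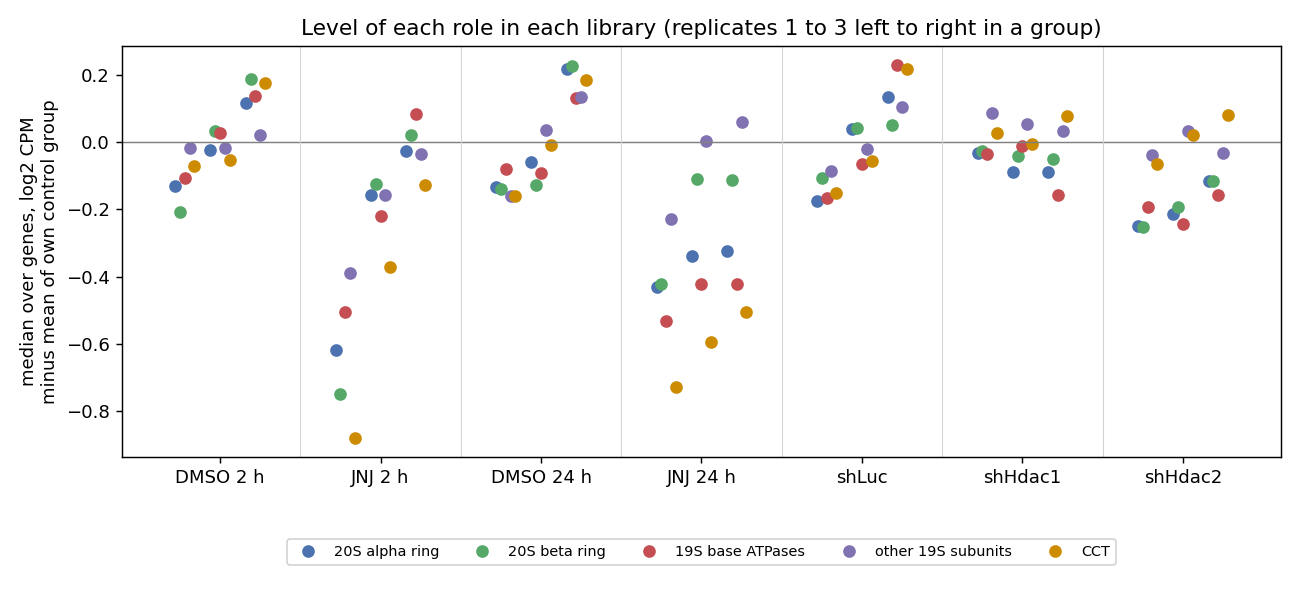
Median over the genes of a role of log2 CPM minus the mean of the library's own control group, for each of the 21 libraries (replicates 1 to 3 from left to right). Controls are DMSO of the same time and shLuc. JNJ 2 h replicate 1 is lowest for the beta ring (-0.75) and CCT (-0.88), and the JNJ 24 h libraries are at -0.73, -0.59 and -0.51 for CCT.

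Of the regulators, 3 of 11 were called at 2 h, all subunits of NF-Y and all lower, where 4.59% of all genes were lower. Nfya, which binds the CCAAT box, fell from 96.1 ± 8.05 to 49.1 ± 6.36 CPM (log2 change -0.97, adjusted p = 0.00183), Nfyc from 60.4 ± 15.2 to 28.6 ± 7.97 CPM (-1.08, adjusted p = 0.00943) and Nfyb from 70.6 ± 7.64 to 47.8 ± 8.27 CPM (-0.56, adjusted p = 0.0495). In a fit of the 2 h groups alone Nfyc missed the threshold (adjusted p = 0.0595). At 24 h Nfya had a log2 change of -0.25 and was not called (adjusted p = 0.233). In the actin and tubulin list Tuba4a (1.63) and Tubb6 (1.87) rose and Actb, the cytoplasmic beta actin, fell (-0.86, adjusted p = 0.017). All 3 missed the threshold in that smaller fit (adjusted p = 0.0633 to 0.115). Tuba4a also did without DMSO 2 h replicate 1 or 2, Tubb6 without DMSO 2 h replicate 1 or 3 or JNJ 2 h replicate 1, and Actb without DMSO 2 h replicate 2 or 3 or JNJ 2 h replicate 1. No assembly, ubiquitin, immunoproteasome or CCT partner gene was called, and at an unadjusted p under 0.05 there were 1, 1, 1 and 3 of 16, 19, 3 and 13, beside the 29% of all genes.

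The difference between the effects at 24 h and 2 h was tested directly. No gene of the 43 was called (2.51% of all genes higher and 1.73% lower), 2 had an unadjusted p under 0.05 (4.65%, against 22% of all genes), and DESeq2 called 0. Psmd8 had the lowest p, with an effect 0.56 higher at 24 h than at 2 h (95% interval 0.04 to 1.07, adjusted p = 0.193). At 2 h it had been at 134, 165 and 183 CPM with JNJ against 154, 155 and 159 CPM. For Psmc6 the difference was -0.60 (95% interval -1.22 to 0.01), and for Cct6b 1.72 (0.12 to 3.32).

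In DMSO cells almost all of these genes were lower at 24 h than at 2 h, without a call. Neither direction held any call among all genes (0% and 0%), 4 of the 43 had an unadjusted p under 0.05 (9.3%, against 9.79% of all genes), and DESeq2 called 0 of them. The change was negative in 42 of 43 genes, with a median of -0.27 (all genes -0.01) and of -0.47 in the beta ring. Psma6, an alpha subunit, was at 200.4, 213 and 241 CPM at 24 h and 262, 336 and 335 CPM at 2 h, with no overlap (log2 change -0.51, SE 0.18, adjusted p = 0.507). In 15 of 43 genes (34.9%) the groups did not overlap and 24 h was lower, against 8.25% of all genes. These DMSO libraries are also the controls of the JNJ comparisons, so the values are not independent of theirs.

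**Figure D5:**
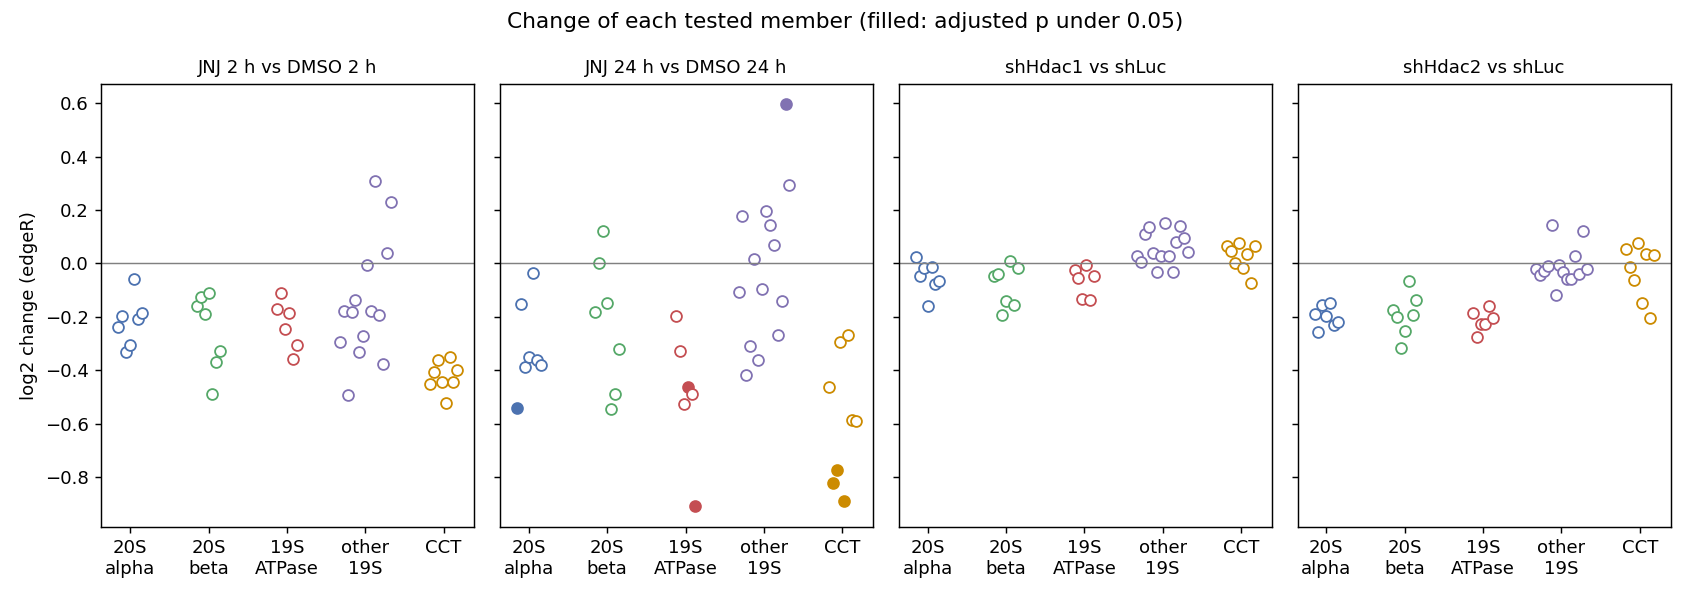
Log2 change (edgeR) of each tested gene by role in 4 comparisons, with filled points at an adjusted p under 0.05. Cct6b, with a log2 change of 0.90 at 2 h and 2.62 at 24 h, is left out. With JNJ at 24 h Psmc6 is at -0.91 and Psmd8 at 0.60, and no point is filled at 2 h or in the knockdowns.

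Knockdown of Hdac1 left these genes near the control. None of 42 was called (0.154% of all genes higher and 0.595% lower), none had an unadjusted p under 0.05 (12.4% of all genes had), and DESeq2 called 0. The median log2 change was -0.01, and all lay between -0.19 and 0.15. Psmb6 had the lowest p, at 155, 146 and 149.7 CPM against 157, 176 and 168 CPM in shLuc, with no overlap (log2 change -0.15, 95% interval -0.33 to 0.02, adjusted p = 0.484). For Psmc6 and Cct3, which fell with the drug at 24 h, the 95% intervals were -0.25 to 0.16 and -0.17 to 0.27. Without shLuc replicate 3, Psmd6, a lid subunit, was called higher (0.24, adjusted p = 0.039), against 0.08 with all libraries.

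With knockdown of Hdac2 the 20S genes had small negative changes, none of which was called by edgeR. Of all genes 0.654% were called higher and 1.03% lower. Among the 42, 5 had an unadjusted p under 0.05, a share of 11.9% against 15.9% of all genes, and DESeq2 called 1, Psmb4. Psmb4, a beta subunit, was at 207, 204 and 213 CPM with shHdac2 and 231, 257.5 and 257 CPM with shLuc, with no overlap (log2 change -0.25, SE 0.07, adjusted p = 0.13). All 14 tested 20S genes were negative (median -0.19), as were the 6 ATPases (median -0.21). The other 19S genes had a median of -0.02 and CCT of 0.01 (-0.04 with DESeq2). In 6 of 42 genes (14.3%) the shHdac2 libraries were all below shLuc, against 10.6% of all genes. For Cct3 the 95% interval was -0.23 to 0.21, and for Cct6a the libraries were at 621, 619 and 633 CPM against 614, 659.8 and 800.1 CPM, with overlap.

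Nfe2l1 was the 1 gene of the lists called with shHdac2, and it was lower, at 259 ± 19.7 CPM against 567 ± 133 CPM in shLuc (log2 change -1.13, SE 0.18, adjusted p = 0.0211). Its product is the factor, also called NRF1 or TCF11, that raises the whole set of proteasome genes when proteolysis is blocked. The call was lost in a fit of these 2 groups alone (adjusted p = 0.075) and without shLuc replicate 1 or 2 or any 1 shHdac2 library (0.0635 to 0.119). With shHdac1 it was at 473 ± 66.1 CPM (log2 change -0.26, adjusted p = 0.639). Both knockdowns are set against the same shLuc libraries.

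Set against each other, the knockdowns gave no call among these genes (0.889% of all genes higher with shHdac1 and 1.17% lower), 1 unadjusted p under 0.05 (2.38%, against 14.3% of all genes), and 0 with DESeq2. The change was positive, higher with shHdac1, in 40 of 42, with a median of 0.10 (all genes 0.02). Genes of a library moved together, so the 42 are not separate observations. Psma1 had the lowest p, at 190.5, 186 and 168 CPM with shHdac1 and 155, 159 and 156 CPM with shHdac2 (log2 change 0.21, 95% interval 0.04 to 0.38, adjusted p = 0.218). Its groups did not overlap. In 13 of 42 genes (31%) the shHdac1 libraries were all above shHdac2, against 13.5% of all genes. Among the regulators Nfya was lower with shHdac1 than with shHdac2 (-0.97, adjusted p = 0.0209) and Nfe2l1 higher (0.87, adjusted p = 0.0434), and among the clients Tubb3 (-1.16, adjusted p = 0.00975) and Tubb2b (-0.70, adjusted p = 0.0359) were lower. Nfya and Tubb3 missed the threshold without replicate 1 or 2 of either group (adjusted p = 0.0507 to 0.101), and Nfe2l1 and Tubb2b without any library but shHdac1 replicate 3 (0.0602 to 0.185).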

How the data were processed

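Total RNA of SMB21 cells was made into TruSeq Stranded mRNA libraries and read as single-end 75 bp reads, per the labels' protocols. The authors aligned them with STAR 2.5.1b to mm9, per the submitters' processing notes, and deposited a table of raw counts by gene symbol for the 21 libraries. The sources used here do not say how strand and multi-mapping reads were handled or which annotation was used. No column belonged to another sample.

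The 12 drug and 9 hairpin libraries were fitted apart with edgeR 4.0.16 (R 4.3.3): filterByExpr (minimum count 10, minimum total 15), TMM, group as the only term, two-sided quasi-likelihood tests, Benjamini-Hochberg adjustment over all 14467 or 13612 genes, called at an adjusted p under 0.05. The common biological coefficient of variation was 0.294 and 0.209. CPM use TMM-scaled totals within each fit, and coding lengths come from GENCODE. At these depths 3 reads are 0.0763 to 0.13 CPM, a floor for counting error only.

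Replicate numbers paired the libraries where same-numbered libraries deviated together (correlation over 0.1). On log CPM with edgeR's prior count they did at 24 h (0.566 to 0.656) and in the hairpin groups (0.245 to 0.798). In the hairpin groups replicates 1 and 2 also correlated across numbers (0.25 to 0.701 on log2(CPM + 1)). There the numbers did not tell which of these 2 libraries belong together. At 2 h replicate 1 was at -0.005 on log CPM with the prior count and 0.142 on log2(CPM + 1). The rule was thus met on 1 of the 2 scales, and the blocked values are given beside that comparison. No pair of replicates agreed within sampling noise. The difference of 2 libraries relative to that noise (chi-square per degree of freedom) was 3.58, 4.25 and 8.76 for replicates 1 and 2 of shLuc, shHdac1 and shHdac2. For pairs with replicate 3 it was 44.9 to 74.9 in these groups. Replicates 1 and 2 were thus far closer to each other than to replicate 3, and n = 3 may overstate the replication there.

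The genes and lists were chosen with earlier results of these data known. Values per library are given for the lowest and highest p of each role at 24 h and the lowest p of the other comparisons. In each list the rule names the 2 called genes of lowest p in each direction. Psmc4, Psmb5, Cct3, Cct4, and Txnl1, Nfyb and Hsf1 at 24 h and Nfyb at 2 h, were added after their values were seen, and the list genes among them were not recomputed under the alternatives. Alternatives were other scalings, no filter, the block, only the compared groups, DESeq2 1.42.0, a fold of 1.5 and leaving out each library. Code was tested on simulated data.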

Additional observations from a re-analysis of the deposited data

How the results depend on the processing

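The number of proteasome and CCT genes called stayed within 1.5 times of the reported number under RLE, upper-quartile and library-total scaling, no filter, and an added demand for a 1.5-fold change, in all 7 comparisons. The replicate block gave 19 calls (17 lower) in place of 8 with JNJ at 24 h and 8 in place of 0 at 2 h (18.6%, against 9.35% of all genes), and it changed no other call among these genes. Those at 2 h were 5 of 9 CCT genes and 3 of 34 proteasome genes (8.82%). A fit of only the compared groups gave 18 at 24 h. That fit has no form of its own for the difference of effects, which uses all 12 libraries. DESeq2 gave 1 call, Psmb4, in place of 0 with shHdac2 (adjusted p = 0.0205), and 10 at 24 h. Leaving out each library gave 0 to 7 calls at 2 h, with 7 without JNJ 2 h replicate 3. It gave 5 to 7 at 24 h, with 5 without JNJ 24 h replicate 3, 0 to 1 for shHdac1, and 0 in the other comparisons. The counts of the smaller fit, DESeq2 and the left-out libraries are given here without the share of all genes, which can move with the fit as well. With JNJ at 24 h 15.1% of all genes were called lower without the block and 21.6% with it. The cause of these changes was not tested. No call of a single gene changed direction, but medians near 0 did. At 24 h that of the other 19S genes turned from -0.04 to 0.07 and 0.12 under upper-quartile and library-total scaling. For the difference of effects that of all 43 turned from -0.03 to 0.16 and 0.12, where the medians of all genes were at 0.13 and 0.09. Over these genes and alternatives, 419 values kept their direction and side of the threshold, 42 gained a call and 108 lost one. Depth limits Cct6b, with 3 to 47 reads in a drug library, and Psma8, Psmb11 and Cct8l1, with at most 4 in any.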

Other observations

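Other chaperones were described beside CCT. Of 24 cytosolic and mitochondrial chaperone genes, 2 rose and 6 fell with JNJ at 24 h (18.1% and 15.1% of all genes did), with a median log2 change of -0.42. Dnaja1, a partner of HSP70, fell from 181 ± 18.2 to 95.8 ± 4.06 CPM (log2 change -0.91, adjusted p = 0.00442), and Hspd1, the mitochondrial chaperonin HSP60, from 728 ± 73.3 to 429 ± 22.3 CPM (log2 change -0.77, adjusted p = 0.00883). The stress-inducible Hspa1a rose from 0.459 ± 0.0812 to 2.51 ± 0.430 CPM (log2 change 2.44, adjusted p = 0.023), a call lost without any 1 library but JNJ 24 h replicate 2, and Hspa4l, an HSP110 relative, from 37.1 ± 6.93 to 70.1 ± 8.59 CPM (log2 change 0.92, adjusted p = 0.00871). Ptges3 (-0.69), Hsp90aa1 (-0.80), Dnajc7 (-0.48) and Hspe1 (-0.50) were the others that fell; they are named after their values were seen and were not recomputed under the alternatives. At 2 h Dnaja1 (-0.79, adjusted p = 0.0216) and Ptges3, the HSP90 partner p23 (-0.67, adjusted p = 0.0294), fell, but Dnaja1 missed the threshold without DMSO 2 h replicate 3 or JNJ 2 h replicate 1 or 2, and Ptges3 without DMSO 2 h replicate 2 or 3 or JNJ 2 h replicate 1 or 2. In neither knockdown was a gene of this list called against shLuc, with 1 and 3 of 23 at an unadjusted p under 0.05 (12.4% and 15.9% of all genes).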
